A study of Mus musculus with 2 samples.

Results

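The broad peaks shared by both antibodies are 623 regions of the mouse genome at which a peak of SRCAP binding found with a GFP antibody was 800 bp wide or wider and overlapped a peak found with an antibody against SRCAP itself. They were chosen by measured width in the GFP list, from 28718 peaks in all: 28290 lay on chromosomes 1 to 19, 816 of these were 800 bp or wider, 768 of those overlapped a SRCAP-antibody peak by 1 bp or more, and 623 had under 50% of their bases soft-masked as repeats in GRCm38 (mm10). The other 13547 GFP peaks that met every condition but the width, called narrower shared peaks here, served as the comparison. Among GFP peaks of chromosomes 1 to 19, 56.4% overlapped a SRCAP peak, and among those of 800 bp or more 94.1% did. These shares belong to the choice of members and are given as a description only.

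The cells were SYAT mouse embryonic stem cells (mESCs), a CGR8 line with YPet and an auxin-inducible degron (AID) fused to SRCAP on both alleles and with the receptor OsTir1 stably expressed, grown in serum with leukemia inhibitory factor. Routine culture included auxinole, which limits basal loss of the tagged protein and whose dose the labels give in nM and the methods in µM, the labels give no treatment of the individual libraries, and the study states that the mapped cells were SYAT under control conditions. In CUT&RUN a nuclease brought to an antibody cuts out the DNA beside the bound protein, and here 100000 cells fixed in 0.1% formaldehyde were used with either the GFP antibody, which recognises YPet, or the SRCAP antibody. Each antibody had 1 library and no replicate, so no difference between the antibodies has a replicate check, and the labels alone place the GFP library in this assay, since the methods name only the SRCAP antibody for it.

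SRCAP is the ATPase of a remodelling complex that swaps H2A for the variant H2A.Z in nucleosomes. H2A.Z is known for marking the nucleosomes on either side of active transcription start sites (TSSs) and is also found at enhancers. In mESCs such elements are commonly bound by general promoter factors such as NFY and YY1 and by pluripotency factors such as OCT4 and ESRRB.

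The following stretches of members, read from the GRCm38 plus strand, show the motif families that the results turn on. They were chosen after the values were seen, exclude annotated untranslated regions, and carry the exact motif letters on either strand in capitals. The first 3 are the members outside Peak1 and repeated sequence with the most exact YY1 or OCT4 octamer sites and a promoter with a pair of YY1 sites. They are an intron of Peg3, a paternally expressed imprinted gene (chr7:6727759-6728058, YY1), the gene of the cytokine receptor subunit Crlf2 (chr5:109558229-109558528, octamer), and the promoter of the splicing regulator Ptbp1 (chr10:79854101-79854400, YY1).
Peg3 intron: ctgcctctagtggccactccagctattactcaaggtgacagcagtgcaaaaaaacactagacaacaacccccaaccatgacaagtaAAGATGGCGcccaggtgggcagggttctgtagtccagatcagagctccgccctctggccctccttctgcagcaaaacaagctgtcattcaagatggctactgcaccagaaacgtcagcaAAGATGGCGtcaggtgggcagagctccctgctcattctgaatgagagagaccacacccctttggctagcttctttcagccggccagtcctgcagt
Crlf2: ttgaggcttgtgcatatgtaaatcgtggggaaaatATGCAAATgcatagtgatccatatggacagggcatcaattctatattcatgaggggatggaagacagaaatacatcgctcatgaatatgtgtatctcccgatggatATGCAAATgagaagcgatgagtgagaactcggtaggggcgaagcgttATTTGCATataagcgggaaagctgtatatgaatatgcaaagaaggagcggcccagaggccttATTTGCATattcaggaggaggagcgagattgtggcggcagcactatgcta
Ptbp1 promoter: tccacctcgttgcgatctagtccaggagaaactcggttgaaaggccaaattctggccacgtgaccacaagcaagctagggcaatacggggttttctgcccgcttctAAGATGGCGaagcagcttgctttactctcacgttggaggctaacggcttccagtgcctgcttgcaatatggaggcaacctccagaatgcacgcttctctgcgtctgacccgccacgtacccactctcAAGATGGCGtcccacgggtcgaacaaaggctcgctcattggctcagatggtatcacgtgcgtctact

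The next stretches hold the NFY sites of the promoter of the histone methyltransferase Kmt5a (chr5:124439630-124439929) and the whole interval between the start sites of Etfdh, a mitochondrial flavoprotein enzyme, and 4930579G24Rik, which are transcribed away from each other (chr3:79628864-79629078, with 1 palindromic NRF1 site and 1 NFY site). The last is far from any TSS and holds an ESRRB site (chr13:110018995-110019294, 83719 bp from the nearest TSS, which is of Pde4d).
Kmt5a promoter: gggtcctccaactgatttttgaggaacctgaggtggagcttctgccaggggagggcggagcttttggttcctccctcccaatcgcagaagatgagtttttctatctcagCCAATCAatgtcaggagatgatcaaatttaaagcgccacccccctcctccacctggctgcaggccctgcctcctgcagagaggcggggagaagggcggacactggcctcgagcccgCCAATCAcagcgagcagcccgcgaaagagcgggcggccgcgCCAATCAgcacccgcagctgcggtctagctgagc
Etfdh and 4930579G24Rik promoter: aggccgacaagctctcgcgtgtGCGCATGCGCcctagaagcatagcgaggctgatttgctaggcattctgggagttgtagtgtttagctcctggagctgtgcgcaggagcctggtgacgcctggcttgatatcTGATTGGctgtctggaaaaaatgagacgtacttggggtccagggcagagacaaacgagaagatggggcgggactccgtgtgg
Distal member near Pde4d: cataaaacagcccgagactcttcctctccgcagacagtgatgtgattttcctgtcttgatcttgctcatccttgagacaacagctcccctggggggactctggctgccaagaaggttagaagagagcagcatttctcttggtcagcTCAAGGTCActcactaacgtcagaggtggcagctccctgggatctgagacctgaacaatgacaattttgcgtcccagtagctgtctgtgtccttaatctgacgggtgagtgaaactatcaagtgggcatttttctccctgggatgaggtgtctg

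By the choice of members, GFP peak width had a median of 906 bp (interquartile range 848 to 1014) and reached 11988 bp. At the limit itself 7 members were 800 bp wide, of which 6 lay at a promoter, and 7 peaks left out were 1 bp narrower, of which 3 did. The 3 of highest GFP score inside the limit lay at the promoters of 4930522L14Rik, Sh3bp5l with Zfp672, and the chromodomain gene Chd9. The 3 of highest GFP score outside it lay at the promoter of Prcc, in an intron of Sae1 and at the promoter of Cnot3. The 7 members overlapped SRCAP peaks of 219 to 765 bp, and the 7 peaks left out SRCAP peaks of 227 to 709 bp.

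Most members were under 800 bp wide in the SRCAP list. The widest SRCAP peak at a member had a median width of 528 bp (interquartile range 371.5 to 729.5), against 305 bp at narrower shared peaks (228 to 411). Of the members, 107 overlapped a SRCAP peak that was itself 800 bp or wider (17.2%, 95% Wilson interval 14.4 to 20.3), compared with 0.856% of the narrower shared peaks, a difference of 16.3 points (95% Newcombe interval 13.6 to 19.5). These intervals cover counting error only, since peaks of 1 library are not replicates. Starting from the SRCAP list instead, 97 of 194 such wide SRCAP peaks (50%) overlapped a wide GFP peak.

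SRCAP peaks covered a median of 59.7% of a member's length (interquartile range 43.9 to 76.9). Most members, 550, overlapped a single SRCAP peak, while 71 overlapped 2 and 2 overlapped 3. A wide region can hold more separate peaks by its length alone. The peak score deposited by the authors, whose meaning was not stated, had a median of 84 for the highest SRCAP peak of a member (59.5 to 125) and of 60 at narrower shared peaks (40 to 89). By GFP width the median SRCAP score was 47 below 300 bp, 80 at 600 to 699 bp, 82 at 800 to 999 bp and 89.5 at 1000 to 1199 bp. Narrower shared peaks of 600 to 699 bp thus scored nearly as high as members of 800 to 999 bp. Across the 623 members the GFP score and the SRCAP score had a Spearman rho of 0.56, against 0.50 over the narrower shared peaks. GFP width and SRCAP width had a rho of 0.23 across members, or 0.20 without the 10 members inside Peak1. The width limit narrows the range behind these width values, and the rho of the widths was 0.39 over the narrower shared peaks. These are descriptions across regions that share both libraries.

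**Figure D1:**
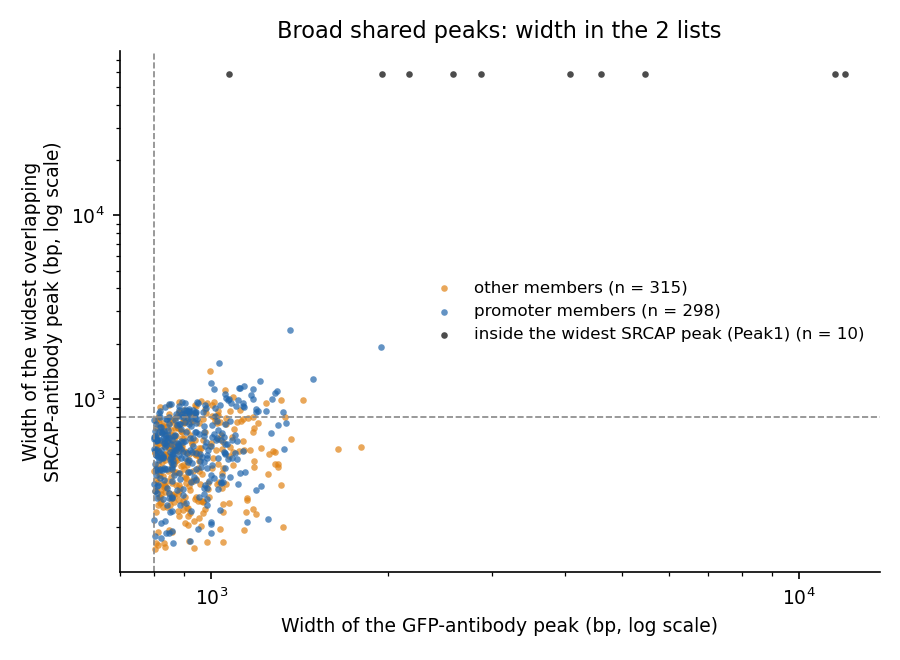
Width of each of the 623 members in the GFP list (x axis, bp, log scale) against the width of the widest SRCAP peak it overlaps (y axis, bp, log scale). Dashed lines mark 800 bp. Most points lie below the horizontal line, with a median SRCAP width of 528 bp, and the 10 black points at the top lie inside a single SRCAP peak of 58359 bp in Peak1.

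Promoters made up a larger part of the members than of the narrower shared peaks. A promoter here spans 1000 bp upstream to 500 bp downstream of any GENCODE TSS and was assigned by the peak's midpoint. It held 298 members (47.8%, 95% interval 43.9 to 51.8), against 40.2% of the narrower shared peaks, a difference of 7.63 points (3.65 to 11.6). By width the share was 35.9% below 300 bp, 45.3% at 600 to 699 bp, 47.6% at 800 to 999 bp and 52.3% at 1000 to 1199 bp. Above that it was 37.2%, or 47.1% (31.5 to 63.3) of 34 members without those inside Peak1.

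The promoter difference moved with the SRCAP score. When the narrower shared peaks were weighted to the members' SRCAP scores in 10 bins, the difference fell to 2.82 points. Members with a SRCAP peak of 800 bp or more outside Peak1 lay at a promoter in 64 of 97 cases (66.0%), and members with a narrower SRCAP peak in 234 of 516 (45.3%), 20.6 points apart (9.85 to 30.3). The part that score has in these differences was not tested.

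Of the other members, 173 were intergenic (27.8%, against 26.9% of the narrower shared peaks) and 137 intronic (22.0% against 28.9%). A further 7 had their midpoint in a coding exon, such as one of Nsd1, a histone methyltransferase, and 8 in another exon. In all, 286 members (45.9%) lay over 2500 bp from any TSS, which are called distal here. Their SRCAP score had a median of 77.5, while that of promoter members was 97.5.

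At promoters of protein-coding genes, the median midpoint lay upstream of the TSS for both kinds of peak, and less far upstream for members. The midpoint of the GFP peak was a median of 33 bp upstream at 263 members (interquartile range -237.5 to 80, negative upstream). It was 118 bp upstream at 4922 narrower shared peaks (-249 to 13). The midpoint lay downstream of the TSS at 42.2% of members and 27.7% of narrower shared peaks, and the unsigned distance was not computed. The SRCAP peak was centred a median of 77.5 bp upstream at members and 101 bp at the narrower shared peaks. The choice required the SRCAP peak to overlap the GFP peak by 1 bp or more, so its position is not independent of the GFP peak. By the choice of members on GFP width, the GFP peak extended further beyond the SRCAP peak at members (medians of 147 bp upstream and 102 bp downstream) than at the narrower shared peaks (18 bp and 0 bp). The TSS itself lay inside 263 of all 298 promoter members (88.3%) and inside 54.4% of the narrower promoter peaks, a share that width alone raises.

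**Figure D2:**
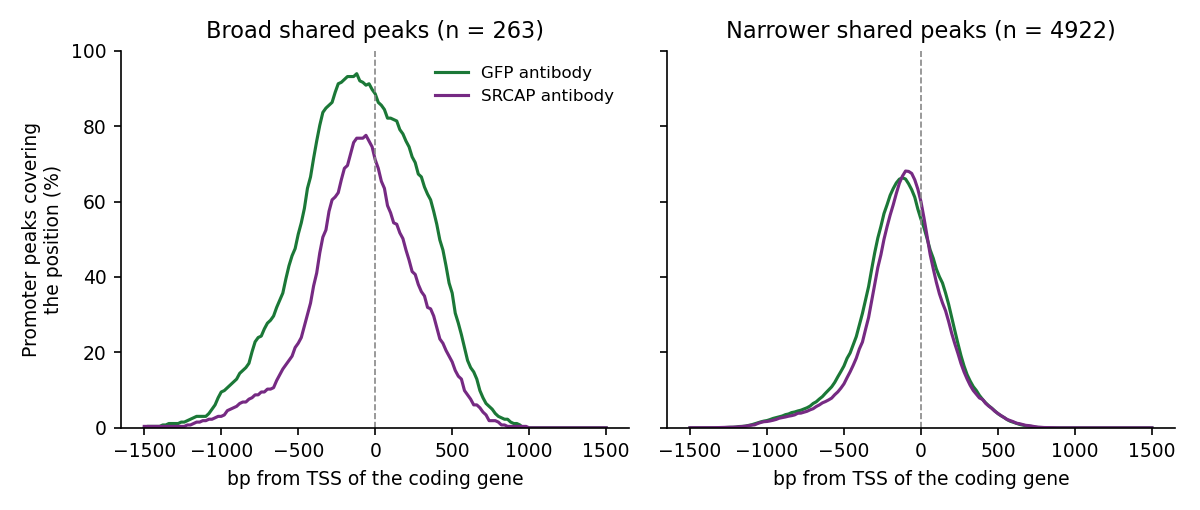
Share of promoter peaks (y axis, %) that cover each position around the TSS of a protein-coding gene (x axis, bp, transcription to the right), for 263 members on the left and 4922 narrower shared peaks on the right. The GFP list peaks at 93.9% and the SRCAP list at 77.6% at members, whereas both lists reach 66.3% to 68.1% and run nearly together at the narrower shared peaks.

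Head-to-head gene pairs were more frequent among promoter members. A pair of coding genes transcribed away from each other with TSSs at most 1000 bp apart was found at 54 of 298 promoter members (18.1%, 95% interval 14.2 to 22.9) and at 8.76% of narrower promoter peaks, 9.36 points apart (5.33 to 14.2). Counting TSSs of all gene types gave 26.2% and 18.2%. This measure used the midpoint and not the width of the peak. Among promoter peaks the share was 6.55% below 300 bp, 10.8% at 600 to 699 bp, 18.6% at 800 to 999 bp and 16.4% at 1000 to 1199 bp.

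The coding TSSs of a pair were a median of 175.5 bp apart at members and 141 bp at narrower shared peaks. Both start sites lay inside the peak at 41 of the 54 members (75.9%) and at 221 of 477 narrower shared peaks (46.3%), a share that width alone raises. The pair with the highest SRCAP score was Ska2, a kinetochore gene, and Prr11 (GFP peak of 906 bp and score 338, SRCAP peak of 657 bp and score 294). It was followed by the ciliary transport gene Ift122 with the DNA glycosylase Mbd4, whose GFP peak of 915 bp met a SRCAP peak of 847 bp with score 279. Other pairs were the DNA repair gene Brca1 with Nbr1, Mutyh with Toe1, and the NFY subunit gene Nfya with Oard1 (GFP peak of 1022 bp, SRCAP peak of 758 bp).

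The widest such pair was Cdca3, a regulator of mitotic entry, with the deubiquitinase Usp5. Its GFP peak spanned 1491 bp with score 191, and its SRCAP peak spanned 1277 bp with score 144. These pairs, apart from the Cdca3 promoter that the cell cycle list names, were picked after their values were seen.

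**Figure D3:**
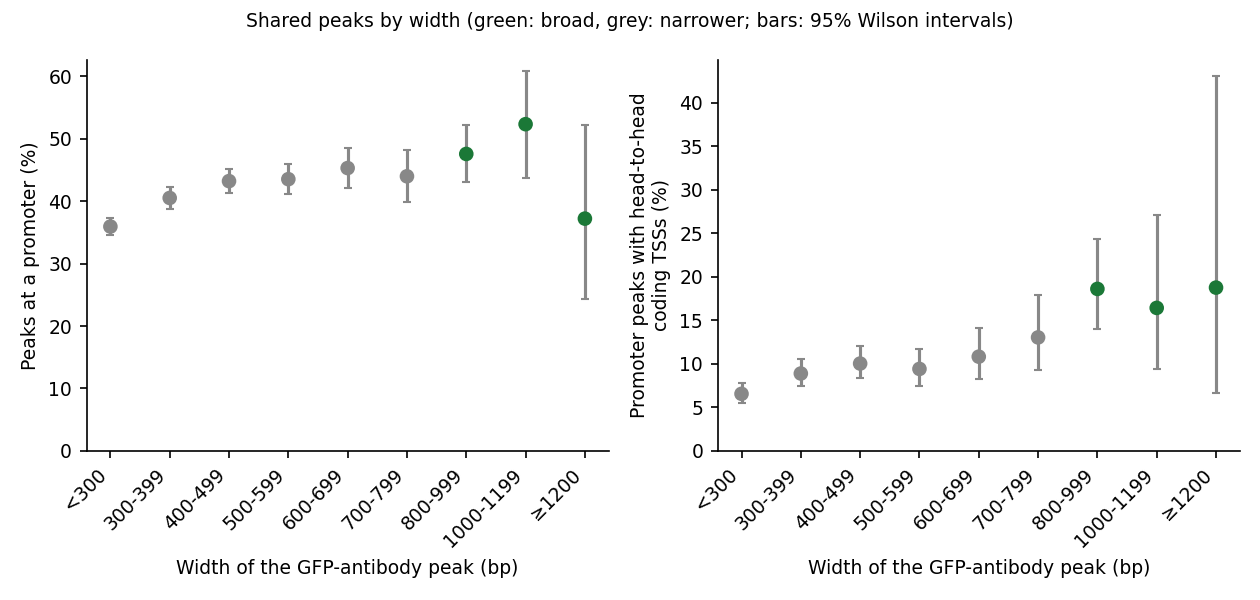
Shared peaks grouped by width of the GFP peak (x axis, bp), with the share at a promoter on the left and the share of promoter peaks that hold a head-to-head coding pair on the right (y axes, %). Bars are 95% Wilson intervals, green points are members and grey points are narrower shared peaks. The left share is lowest below 300 bp (35.9%) and highest at 1000 to 1199 bp (52.3%), and the right share is 6.55% below 300 bp and 18.6% at 800 to 999 bp, with small falls between some neighbouring bins.

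Base composition was compared over all peaks and then within promoter and distal peaks. In the central 500 bp, GC content had a median of 52.2% in members and 51.6% in narrower shared peaks, and the observed over expected CpG ratio had medians of 0.431 and 0.359. A CpG-rich stretch, meaning any 500 bp within the central 1000 bp with at least 55% GC and a ratio of 0.75 or more, was found in 28.4% of members and 23.5% of narrower shared peaks. Within promoter peaks the shares were 56.4% and 54.9%, a difference of 1.44 points whose interval of -4.39 to 7.11 included 0. Promoter members had a median GC content of 57.4% and a ratio of 0.682, and narrower promoter peaks 56.2% and 0.636. Distal members had a median GC content of 47.0% and a ratio of 0.217, and distal narrower shared peaks 48.8% and 0.238. The medians of members were thus higher at promoters and lower at distal peaks.

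Exact copies of 15 motifs were counted on both strands in the central 500 bp. This window, also used for base composition, lies inside every member. The narrower shared peaks had a median width of 357 bp (interquartile range 261 to 488), so in most of them it took in flanking sequence. For 6 of the 15 motifs the interval of the difference between members and narrower shared peaks lay above 0, with no adjustment for the number of motifs. These were NFY (CCAATCA, 18.1% against 12.5%), STAT3 (TTCCNGGAA, 4.49% against 2.07%), the OCT4 octamer (ATGCAAAT, 7.38% against 5.22%), ESRRB (TCAAGGTCA, 2.41% against 1.14%), YY1 (AAGATGGCG, 2.89% against 1.58%) and ZNF143 (ACTACAATT, 1.61% against 0.605%). The intervals included 0 for ETS, NRF1, SP/KLF, CRE, E-box, BANP/ZBTB33, RFX, CTCF and AP-1 motifs. A match is only a string of letters and shows no binding.

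Promoter and distal peaks were then taken apart, and whether a motif's difference itself changed with location was not tested. At promoters NFY was in 27.9% of members and 17.9% of narrower shared peaks, 9.97 points apart (5.07 to 15.4), YY1 in 5.70% and 3.25% (difference 2.45, 0.282 to 5.72), and STAT3 in 4.36% and 1.93% (difference 2.43, 0.595 to 5.41). NFY is a CCAAT-binding activator and YY1 a zinc finger factor, and both are common at promoters. At distal peaks NFY was in 8.39% of members and 8.95% of narrower shared peaks. YY1 was in 0 of 286 distal members and in 0.443% of distal narrower peaks. The count of 0 allows a share of up to 1.05% (3 counts), or 1.325% by the upper Wilson bound.

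At distal peaks the intervals of ESRRB, STAT3, the octamer and ZNF143 lay above 0. ESRRB, an orphan nuclear receptor of naive pluripotency, had its motif in 12 of 286 distal members (4.20%) and in 1.28% of distal narrower peaks, a difference of 2.91 points (1.11 to 5.91). At promoters it was in 1 of 298 members (0.336%) and in 0.845% of narrower shared peaks. The STAT3 motif, read by the effector of leukemia inhibitory factor, was in 4.20% against 2.23% (difference 1.97, 0.146 to 4.98). The octamer was in 10.1% against 6.93% (difference 3.21, 0.161 to 7.30), but over whole distal peaks octamers were no denser in members, at 0.163 per kb against 0.165. ZNF143, a zinc finger activator, had its motif in 1.05% against 0.221% (difference 0.827, 0.121 to 2.82).

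These shares depended on the window and, for NFY, on the score. With the narrower shared peaks weighted to the members' SRCAP scores, their NFY share was 15.8%, inside the members' interval of 15.3 to 21.4, and at promoters it was 23.0%, just below the members' interval of 23.1 to 33.2. In the central 200 bp NFY was in 7.38% of members and 6.45% of narrower shared peaks, and the difference of 0.932 points had an interval (-0.920 to 3.29) that included 0. Over whole peaks NFY sites were no denser in members, at 0.323 per kb against 0.340. Densities over whole peaks, here and for the octamer, include the 10 long members inside Peak1, whose median GC content was 37.0%. They were not computed without those members. Sites per kb were higher in members for YY1 (0.0446 against 0.0247), ESRRB (0.0351 against 0.0230) and STAT3 (0.0717 against 0.0448). They were also higher for ZNF143 (0.0223 against 0.0130) and, over all peaks, the octamer (0.137 against 0.120). Of the 28 YY1 sites in members, 6 lay in the Peg3 member. ETS, SP/KLF and BANP/ZBTB33 were denser in members too, and NRF1, CRE, E-box, RFX, CTCF and AP-1 less dense. In the central 200 bp the intervals of YY1, ESRRB and STAT3 lay above 0, and those of the octamer (-0.0162 to 3.04) and ZNF143 (-0.0518 to 1.35) included it.

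**Figure D4:**
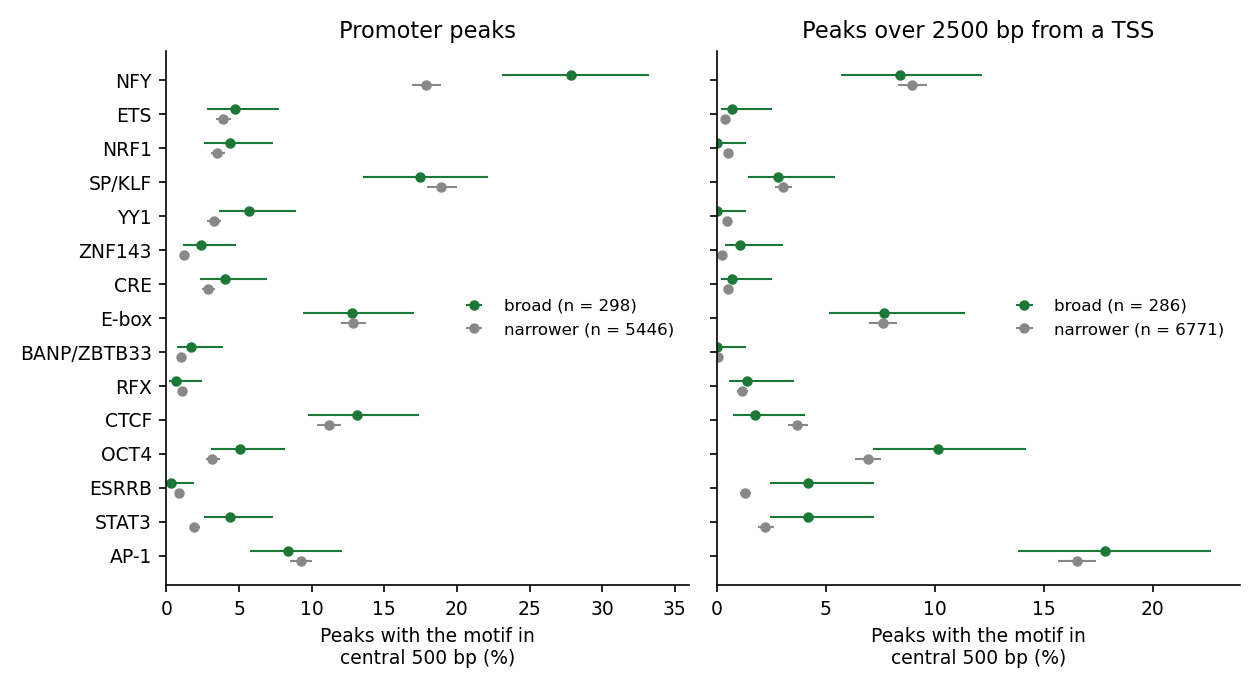
Share of peaks with each exact motif in the central 500 bp (x axes, %), for promoter peaks on the left and distal peaks on the right. Green points are members, grey points are narrower shared peaks, and bars are 95% Wilson intervals. NFY stands apart at promoters (27.9% against 17.9%), and ESRRB at distal peaks (4.20% against 1.28%).

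Single members held arrays of sites. The Peg3 member (chr7:6727562-6728926, 1365 bp) had 6 exact YY1 sites, of which 2 are in the stretch shown, and overlapped 2 SRCAP peaks with a top score of 153. The region of Peg3 that is methylated on the maternal allele is known for a tandem array of YY1 sites. Of 20 imprinted genes listed after the values were seen, this was the only one with a member, and 11 had a shared peak of any width. These counts were not limited to promoters, and the share over all genes was not computed in the same way. They therefore show no difference from other genes. The Crlf2 member (chr5:109556729-109558528, 1800 bp) had 7 octamers and overlapped 3 SRCAP peaks, which covered 46.0% of it.

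Few genes had a member at the promoter. Of 20780 protein-coding genes on chromosomes 1 to 19, 326 (1.57%) had one and 5547 had a shared peak of any width. Among replication-dependent histone genes, which encode the bulk histones of S phase, 5 of 67 had a member (7.46%, 95% interval 3.23 to 16.3) out of 17 with a shared peak. The Hist4h4 promoter had a GFP peak of 1194 bp and a SRCAP peak of 844 bp, and that of Hist3h2a peaks of 948 bp and 953 bp. Hist3h2ba, in the same cluster, had a GFP peak of 817 bp, and Hist1h2bc and Hist1h2ac shared a member of which 42.3% of 31-base words were repeated elsewhere in the genome.

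Zinc finger genes of the Zfp series had a member in 16 of 385 cases (4.16%, 2.57 to 6.64), of which 14 were outside mostly repeated sequence. The widest were Zfp78 (1105 bp), Zfp873 (1014 bp), Zfp369 (1012 bp) and Zfp74 (984 bp), with SRCAP peaks of 498 to 809 bp. Splicing factors had a member in 4 of 67 cases, at Hnrnpa3, U2af1l4, Hnrnpul1 and Sf3b6. The cell cycle list, of symbols that begin with Ccn, Cdk, Cdc, Bub, Aurk or Plk, had a member in 6 of 120 cases. The widest were at Cdca3, Cdk2ap2, Cdk5rap3 and Cdk19, and a symbol alone does not show a role in the cell cycle. Chaperones had 4 of 83, at Hspb6, Dnajc17, Dnajc14 and Hsp90b1, the chaperone of the endoplasmic reticulum. The lower interval bounds of the histone, Zfp, splicing, cell cycle and chaperone lists, from 1.89% to 3.23%, lay above the 1.57% of all coding genes, with no adjustment over the 18 lists. Shared peaks of any width were also more frequent at the Zfp (51.2%), splicing (52.2%), cell cycle (42.5%) and chaperone (44.6%) genes than at all coding genes (26.7%). Of the genes with a shared peak, 8.12%, 11.4%, 11.8% and 10.8% of these lists had a member, against 29.4% of the histone genes and 5.88% of all coding genes.

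Chromatin remodellers and modifiers had 3 members among 95 genes (3.16%, 1.08 to 8.88). Kdm4a, a histone demethylase, had a GFP peak of 821 bp with score 278 and a SRCAP peak of 707 bp with score 340. Kmt5a had a GFP peak of 821 bp as well, with a SRCAP score of 50, and Chd9 one of 800 bp with a SRCAP score of 63. Ribosomal proteins had 1 member of 90 genes (Rps2), mitochondrial ribosomal proteins 2 of 78 (Mrpl2 and Mrps36), and translation factors with tRNA synthetases 1 of 99 (Wars2).

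Of 22 pluripotency factors 1 had a member at its promoter, Dppa2, a chromatin-bound factor of early embryos. Its GFP peak of 1026 bp had score 132, and its SRCAP peak of 322 bp had score 40 and covered 31.4% of it. In a case picked after the values were seen, a distal member of 1092 bp lay 13076 bp from the nearest TSS, which is of Mycn, with a SRCAP score of 171. No member lay at the promoters of 144 developmental regulators, 1127 olfactory receptors, 66 protocadherins, 49 proteasome subunits, 129 vesicle trafficking genes, 15 hosts of small nucleolar RNAs, 9 immediate early genes or 6 genes that the study names among others (Gata3, Gata6, Bmp4, Meis1, Lefty2 and Trim28). The upper Wilson bound was 0.340% for the olfactory receptors, below the 1.57% of all coding genes, and lay above that share for each of the other lists with no member, for example 2.89% for the trafficking genes and 7.27% for the proteasome genes. Shared peaks of any width were found at 27 of the proteasome genes and 55 of the trafficking genes, and at 13 of the developmental regulators. Only 2 of the 1127 olfactory receptors (0.178%) had a shared peak of any width, against 26.7% of all coding genes. Their lack of members is therefore not particular to wide peaks.

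The widest members lay in one block. A stretch of Peak1, a pseudokinase gene of the cytoskeleton, held a single SRCAP peak of 58359 bp (chr9:56260445-56318803, score 97). Inside it 13 GFP peaks covered 93.9% of its length, with gaps of 175 to 534 bp, and their outer edges came within 246 bp and 54 bp of those of the SRCAP peak. Of these GFP peaks 10 were members, and the 9 widest members of all, from 1949 to 11988 bp, were among them. The 3 others were left out for masked sequence or width.

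The block stood apart by width, except for a member of 1072 bp. GFP scores in it ranged from 28 to 81, and other members started at 30 with a median of 94. Its members had a median GC content of 37.0%. The widest member elsewhere spanned 1944 bp and the widest SRCAP peak at a member elsewhere 2363 bp. When peaks at most 1000 bp apart were joined, the next longest GFP runs were 20273 bp and 16548 bp near the start of chromosome 9, with over 95% masked sequence, and then 4047 bp. Without the block the promoter share of members was 48.6% and the share with a wide SRCAP peak 15.8%.

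**Figure D5:**
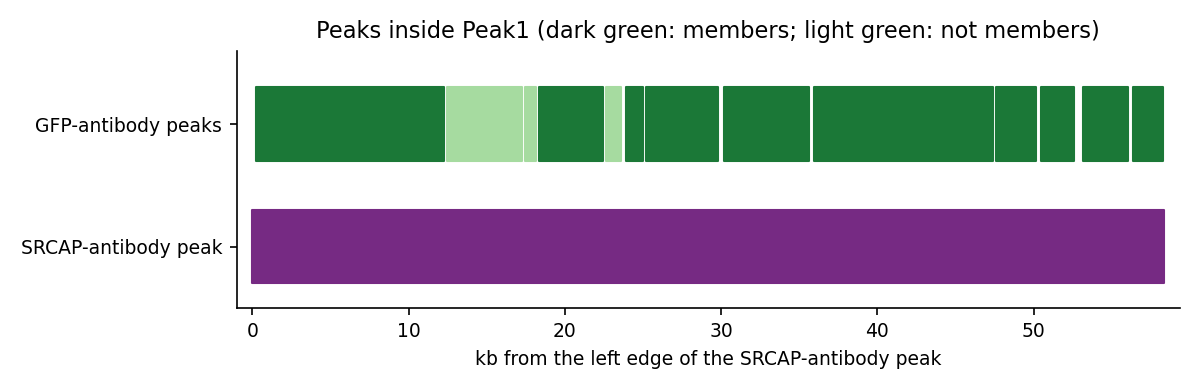
Peaks of both lists inside Peak1, in kb from the left edge of the SRCAP peak (x axis). The SRCAP list holds a single peak of 58.4 kb, and the GFP list 13 peaks, of which the 10 in dark green are members.

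Outside Peak1 the widest SRCAP peak at a member lay in Smarca5, which encodes an ATPase of the ISWI remodelling family. Its gene body held 9 GFP peaks, 3 of them members of 1075, 1153 and 1363 bp, and 14 SRCAP peaks, the widest of 2363 bp. GFP peaks covered 10.9% of its exonic and 14.6% of its intronic bases, and SRCAP peaks 23.9% and 19.99%. The next in SRCAP width with under 50% of 31-base words repeated were Gm42418 (1929 bp), an intron of Dnajb6 (1413 bp), the Cdca3 and Usp5 promoter (1277 bp) and the promoter of the fatty acid transporter Slc27a1 (1254 bp, score 198).

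Of the 10 members with the highest SRCAP score, 5 lay in sequence of which at least 50% recurs elsewhere in the genome. A member on chromosome 1 at Gm28438 (915 bp) had scores of 33600 and 26583, and 93.9% of its 31-base words also occur on the mitochondrial chromosome. A pair at Gm42418 and Gm26917 on chromosome 17 followed, with SRCAP scores of 1006 and 857, and 42.0% and 4.41% of their 31-base words repeated. Only copies in the assembled chromosomes enter this measure, so a low value does not show that a region is single-copy. In 33 members (5.30%, 3.80 to 7.35) at least 50% of the 31-base words recur in the genome, compared with 3.03% of narrower shared peaks, and 10 of the 33 lay on chromosome 13, among them the zinc finger gene Zfp640 (SRCAP score 745). Whether the reads of these regions came from them was not tested, and a list of regions of known excess signal was not used here.

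Among the 390 members without any repeated word, the highest SRCAP scores were at promoters. Sfi1, a centrosome gene, came first with scores of 1044 (GFP) and 787 (SRCAP), and it too was not checked against a list of regions of known excess signal. The transcription elongation factor gene Ell followed with 254 and 352, its GFP peak spanning 1325 bp, then Kdm4a with 278 and 340. The highest distal member in such sequence, between genes on chromosome 8, had scores of 174 and 246 and lay 27612 bp from the nearest TSS, that of Gm33326.

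Members were found on each of the 19 chromosomes. Chromosome 8 held 79 (12.7% of members and 9.92% of narrower shared peaks, a difference of 2.76 points, 0.318 to 5.65), and its members were 5.55% of its shared peaks. Across chromosomes this share ranged from 1.82% to 6.41%, the highest on chromosome 13. Leaving out chromosome 8 is among the alternatives given in the closing section.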

How the data were processed

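CUT&RUN peak lists of 2 libraries, 1 with a GFP antibody and 1 with a SRCAP antibody, were analysed. The authors deposited 1 list per library, with coordinates and a whole-number score per peak (minimum 13, meaning not stated). The submitters' processing notes name mm10, STAR, Picard and MACS2, without versions or roles, and the steps and control used for CUT&RUN are not given in the sources used here. The lists hold no read counts, so depth is unknown and scores were compared only as listed.

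Libraries were grouped by the antibody in their titles. Overlaps, GENCODE vM21 annotation, base composition, exact motifs and 31-base words repeated in GRCm38 were computed in Python 3.11.15 (numpy 2.4.6, pandas 2.3.3, scipy 1.17.1) and plotted with matplotlib 3.10.9. The overlap, motif, CpG-rich and repeated-word steps were tested on simulated data, and the other steps were not. Sequences and masking were read from the GRCm38 assembly. Shares carry 95% Wilson intervals, differences Newcombe intervals, and no test was made because no antibody had a replicate. Peaks were placed at midpoints.

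Members and gene lists were chosen with earlier results of these data known. The gene lists were taken by symbol, most by its first letters, so a listed gene need not have the role its list is named for. The rule named the 10 widest members, the 10 with the highest SRCAP score, the 10 with the widest SRCAP peak, the 5 widest distal, the 3 nearest the width limit on each side, every promoter member of the pluripotency, study-named, chromatin, small nucleolar RNA host and immediate early lists and up to 4 of each other list. Members named for Ell, Mycn, Crlf2, Peg3, Smarca5, Slc27a1, Dnajb6, exons or distal scores, and the gene pairs, were chosen after their values were seen. Alternatives covered width, masking, coverage, score, chromosome 8, repeated words, promoter and base windows.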

Additional observations from a re-analysis of the deposited data

How the results depend on the processing

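No paired analysis was possible because neither antibody had a second library. Of 115 alternative values of the main results, 83 stayed within the interval of the value reported, or within 1.5 times it for counts, 32 moved and 0 reversed. The alternatives without the Peak1 block, the gene-pair difference and the motif references were chosen after seeing the data.

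Counting peaks of 1000 bp or more gave 171 members, a share with a wide SRCAP peak of 33.9% and a median SRCAP score of 96. From 600 bp the values were 2102 members, a coverage of 63.1%, a wide SRCAP share of 7.56% and a gene-pair difference of 5.27 points. Requiring SRCAP peaks to cover 50% of each region or more left 408 members, with a promoter share of 53.7%, a promoter difference of 12.1 points, coverage of 70.4%, a wide SRCAP share of 26.2%, a SRCAP score of 97, GC content of 53.1%, a CpG ratio of 0.473 and a CpG-rich share of 32.6%. With no limit on masked bases the promoter share was 39.2%, its difference 2.83 points, GC content 50.4%, the CpG ratio 0.335 and the CpG-rich share 23.1%. Under 25% masked these were 53.1% for promoters, 53.3% GC, 0.480 and 32.1%. The promoter share was 54.1% in a window of 2500 bp either side and 41.1% with coding TSSs only, and weighting to SRCAP score gave a difference of 2.82 points. Among these alternatives the gene-pair share was that of all gene types (26.2%), and the coding TSSs given first in the results had 18.1%. The gene-pair difference was that of coding TSSs. The mirrored rule gave a wide SRCAP share of 50%. The count of motifs with a difference above 0 was 3 in 200 bp windows and 3 in promoter peaks, against 6. The cause of these shifts was not tested.

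The lists cannot show how depth, a control antibody or replicate spread would change any value.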
